A study of Homo sapiens with 4 samples.

Results

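H3K9la regions of chromosome 8q24 in KYSE30 cells are described here, where a region is 1 record of a deposited peak list. The segment was taken as every record on chromosome 8 that starts at or above position 117000000 of hg38. It holds 809 of the 56875 regions in the sg3 list and 625 of the 40332 regions in the V2 list, 1434 of 97207 in all. The segment is 28.1 Mb long, taken to 145056030, the highest chromosome 8 coordinate in the lists or the gene table. The records just below the limit lay in RAD21 in each list (fold enrichment 6.32 in sg3 and 4.07 in V2), and those just above it lay at MED30 (8.54 and 4.66).

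H3K9la is histone H3 carrying a lactyl group on lysine 9, an acyl mark reported at active promoters and enhancers. Band 8q24 is best known for MYC, a transcription factor gene that drives growth and division, which lies in a stretch almost free of other protein-coding genes. Long noncoding RNAs such as PVT1, CCAT1 and the CASC genes are transcribed from that stretch, which is a known site of enhancers in epithelial cancers. The distal end of the band is gene-rich and includes the LY6 family of surface proteins and the large cytoskeletal linkers PLEC and EPPK1.

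The data are anti-H3K9la ChIP-seq of KYSE30, an established line of oesophageal squamous cell carcinoma, in arms named sg3 and V2. The sources used here do not explain these names, and the series title presents the deacylase SIRT3 as an eraser of the mark. With 1 ChIP and 1 input library an arm, no comparison of the arms has a replicate check and no test was made. GEO files the sg3 list with the ChIP sample of its arm, but the V2 list with the V2 input sample. Read depth is not known, and the exact 95% intervals below cover counting error only, although neighbouring regions are not independent. Fold enrichment and -log10 q are the authors' values, and they rank or describe regions within 1 list only. Of 12 squamous epithelium markers, 9 had a region of each list within 1 kb of a gene end and the other 3 had an sg3 region. A region of either list stood at 0 of 6 liver, 2 of 6 neuron, 2 of 6 blood, 1 of 6 muscle and 3 of 6 fibroblast and endothelium markers.

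The 8q24 segment was denser in H3K9la regions than the rest of its chromosome in both lists. The sg3 list held 28.8 regions per Mb (95% CI 26.9 to 30.9) in the segment and 16.9 (16.2 to 17.7) on the rest of chromosome 8, a ratio of 1.71 (1.57 to 1.85). The V2 list held 22.3 (20.6 to 24.1) and 12.8 (12.1 to 13.5), a ratio of 1.74 (1.58 to 1.91). The ratio of covered bases was 2.01 in sg3 and 2.02 in V2. Of 22 other chromosomes, 2 had a higher mean density than the segment in each list, chromosomes 17 and 19.

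Much of this excess in mean density lay in 2 adjoining windows of 1 Mb, from 126 to 128 Mb, around LRATD2, POU5F1B and MYC. They held 363 of the 809 sg3 regions (44.9%) and 327 of the 625 V2 regions (52.3%), at 182 and 164 regions per Mb. Without them the segment had 17.1 sg3 regions and 11.4 V2 regions per Mb. The ratio to the rest of chromosome 8 was then 1.01 (0.912 to 1.12) in sg3 and 0.894 (0.787 to 1.01) in V2. The rest of chromosome 8 kept its own dense windows, those from 29, 100 and 101 Mb. These had 150, 150 and 121 sg3 regions and 128, 146 and 97 V2 regions. The 2 windows were picked for their counts and left out on 1 side only, so these densities and ratios are a description.

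**Figure D1:**
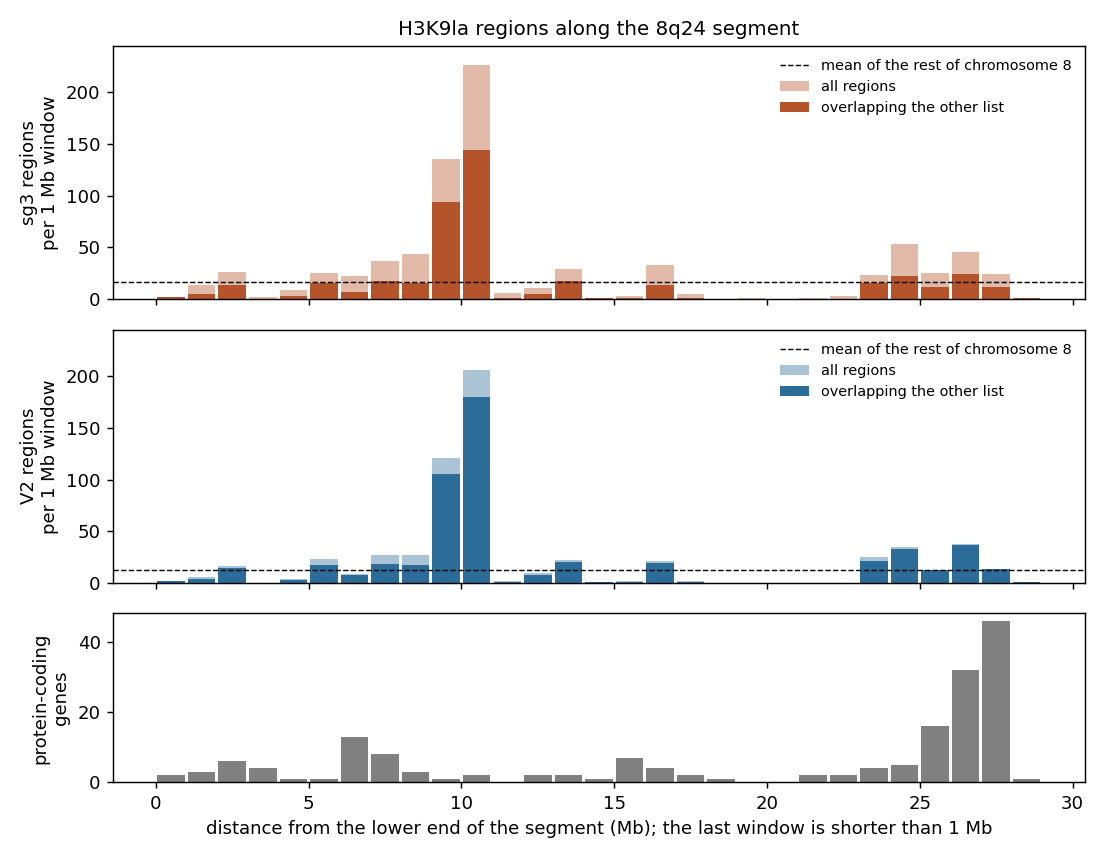
Number of sg3 regions (top) and V2 regions (middle) and of protein-coding genes (bottom) in each 1 Mb window of the 8q24 segment, against distance from its lower end in Mb. Pale bars count all regions, dark bars those overlapping the other list, and the dashed line is the mean of the rest of chromosome 8: 2 windows with 136 and 227 sg3 regions stand above the others, while most genes lie near the right end.

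The window from 127 Mb had 227 sg3 regions and 206 V2 regions and ranked 2 of 3043 windows of the genome in each list. Above it stood the window from 73 Mb on chromosome 13, with 244 and 210. The window from 126 Mb had 136 sg3 regions (rank 13) and 121 V2 regions (rank 15). The next window of the segment in sg3 was that from 141 Mb, with 53 sg3 and 35 V2 regions, which spans DENND3, a regulator of membrane traffic, and SLC45A4. In V2 the next was the window from 143 Mb, with 38 V2 and 46 sg3 regions. The median window of the segment had 14 sg3 and 9 V2 regions, against 6 and 3 on the rest of chromosome 8.

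Among the 50 windows of the genome with at least 100 sg3 regions, those at MYC and LRATD2 were among the ones with the fewest genes. Chromosome 8 had 5 of these windows, starting at 29, 100, 101, 126 and 127 Mb. The window from 126 Mb has 1 protein-coding gene and that from 127 Mb has 2, while the 48 windows outside the pair had 2 to 61, with a median of 10.5, and 5 of the 48 also had 2. In the window from 127 Mb, 98.7% of sg3 regions lay outside protein-coding genes and their ends, and in that from 126 Mb 97.8%. The median over the 48 was 52.9%, and 1 of them, from 75 Mb on chromosome 12, had a higher share than the window from 127 Mb, at 99%. The share of sg3 regions that overlapped a V2 region was 63.4% in the window from 127 Mb and 69.1% in that from 126 Mb, inside the range of 38.2 to 78.6% over the 48.

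**Figure D2:**
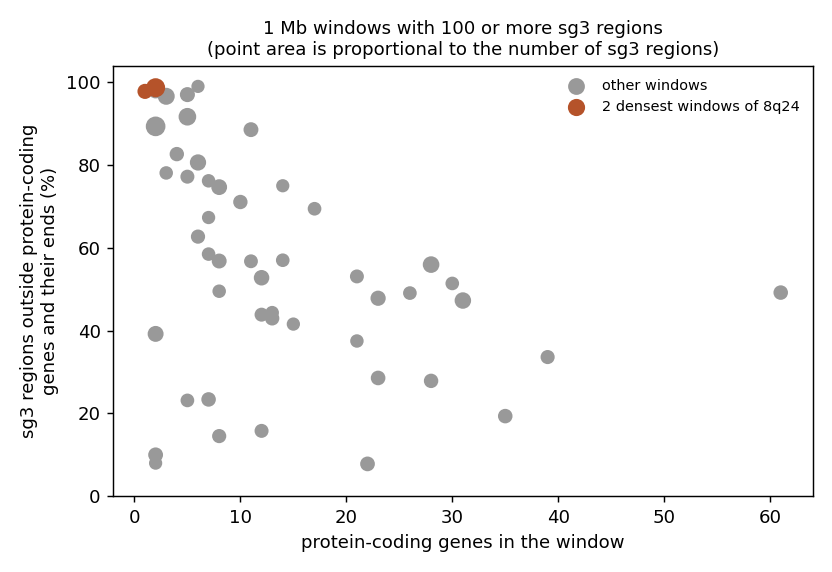
Each point is 1 of the 50 windows of 1 Mb with at least 100 sg3 regions, by its number of protein-coding genes (x axis) and the share of its sg3 regions outside protein-coding genes and their ends in percent (y axis). Point area is proportional to the number of sg3 regions, and the 2 windows of 8q24, at 97.8% and 98.7%, sit in the upper left corner.

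Within these 2 Mb the regions fell into blocks with bare or thinly marked stretches between them, and the main blocks of the lists lay at the same places. Of 20 windows of 100 kb, 10 had at least 20 sg3 regions and together held 310, and 3 had no region of either list. Of those 3, only the window from 126700001 lay between blocks. Counts of sg3 regions rose over the windows from 126200001, 126300001 and 126400001 (6, 21 and 43). They fell over those from 127800001 and 127900001 (29 and 10). The lowest region started at 126241537 in sg3 and 126241637 in V2, after 252 kb and 409 kb without a region. The last ended at 127954629 and 127953140, before 213 kb and 224 kb without one.

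In sg3 the cluster of most regions lay around LRATD2. Spanning chr8:126374156-126581535, it held 83 regions over 207 kb, of which 66 were shared, and covered 50.5% of its bases. The V2 cluster at chr8:126378488-126581021 held 79, of which 75 were shared. A cluster here is a run of at least 5 regions of 1 list with gaps of at most 10 kb. In the 2 densest windows, some smaller clusters met no cluster of the other list. They were the sg3 clusters starting at 126318478 (7 regions, 1 shared) and 126612201 (8 regions, 5 shared). In V2 it was that starting at 127032986 (5 regions, 4 shared). At LRATD2 itself (chr8:126552443-126558478) a 3438-base sg3 region at chr8:126555046-126558483 had a fold enrichment of 7.81. V2 had 2 narrower regions inside that span, at chr8:126555715-126557489 (3.88) and chr8:126557945-126558379 (4.45). The strongest V2 region of the segment, chr8:126504251-126506193 with fold enrichment 23.7 and -log10 q 142, had its summit 46634 bases below LRATD2. It overlapped the sg3 region at chr8:126503323-126506189, which had a fold enrichment of 16.7.

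The block at MYC began well below the gene. The sg3 cluster at chr8:127550417-127748178 held 77 regions over 198 kb, took in CASC11 and MYC, and covered 59.4% of its bases. The V2 cluster at chr8:127555205-127767684 held 80, the most of any V2 cluster of the segment. The widest sg3 regions of the segment were in this block, chr8:127658962-127674210 with 15249 bases and chr8:127581766-127596276 with 14511 bases. The V2 list had 4 regions across the former and 5 across the latter. Among those 5, chr8:127587430-127596317 with 8888 bases and a fold enrichment of 19.1 was the widest V2 region of the segment.

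MYC (chr8:127735434-127742951) had a region of each list at its lower end. In sg3 a 4644-base region, chr8:127734488-127739131, ran from below the gene into it, with fold enrichment 5.30 and -log10 q 44.1. In V2 that span held 3 regions, chr8:127735491-127736242 (fold enrichment 3.66), chr8:127736835-127737466 (4.17) and chr8:127737812-127738170 (2.64). CASC11 just below MYC, a long noncoding RNA gene, had 8 sg3 and 11 V2 regions over it. The 100 kb that holds CASC11, MYC and the start of PVT1 had 16 sg3 regions, 12 of them shared, and 26 V2 regions, 16 of them shared. It was among 4 of the 20 windows with more V2 than sg3 regions.

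PVT1, whose transcript is a long noncoding RNA and the host of microRNAs, was marked over its lower part only. It spans chr8:127794524-128101256 (307 kb) and had 41 sg3 and 42 V2 regions over it. All of them ended within the lower 52.2% of the gene in sg3 and 51.7% in V2, and the upper 147 kb and 148 kb held none. A 7894-base sg3 region in PVT1, chr8:127860026-127867919, had a fold enrichment of 12.3, and the V2 region at chr8:127860066-127861603 within its span had 12.5. Of the PVT1 microRNAs, MIR1204 near the lower end had a region of each list, and MIR1205, MIR1206 and MIR1207 further up had none.

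Below MYC, regions lay across the CASC and CCAT genes. CASC8 had 55 sg3 and 44 V2 regions over it, CASC21 34 and 26, and CCAT1 6 and 4. At POU5F1B (chr8:127413447-127417224), an intronless copy of the stem cell factor gene POU5F1 within CASC8, both lists had 3 regions within 1 kb of an end. The strongest were chr8:127415780-127416948 in sg3 (fold enrichment 7.63) and chr8:127417460-127418100 in V2 (6.38). How reads that align to several places were treated is not given, so values at this copy are uncertain. The sg3 cluster over CASC21, CASC8 and POU5F1B, chr8:127366741-127530811, held 57 regions, 50.9% of them shared, and met 4 separate V2 clusters with 39 regions. PCAT1 and PCAT2, in the thinly marked stretch between the blocks, had no region of either list.

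**Figure D3:**
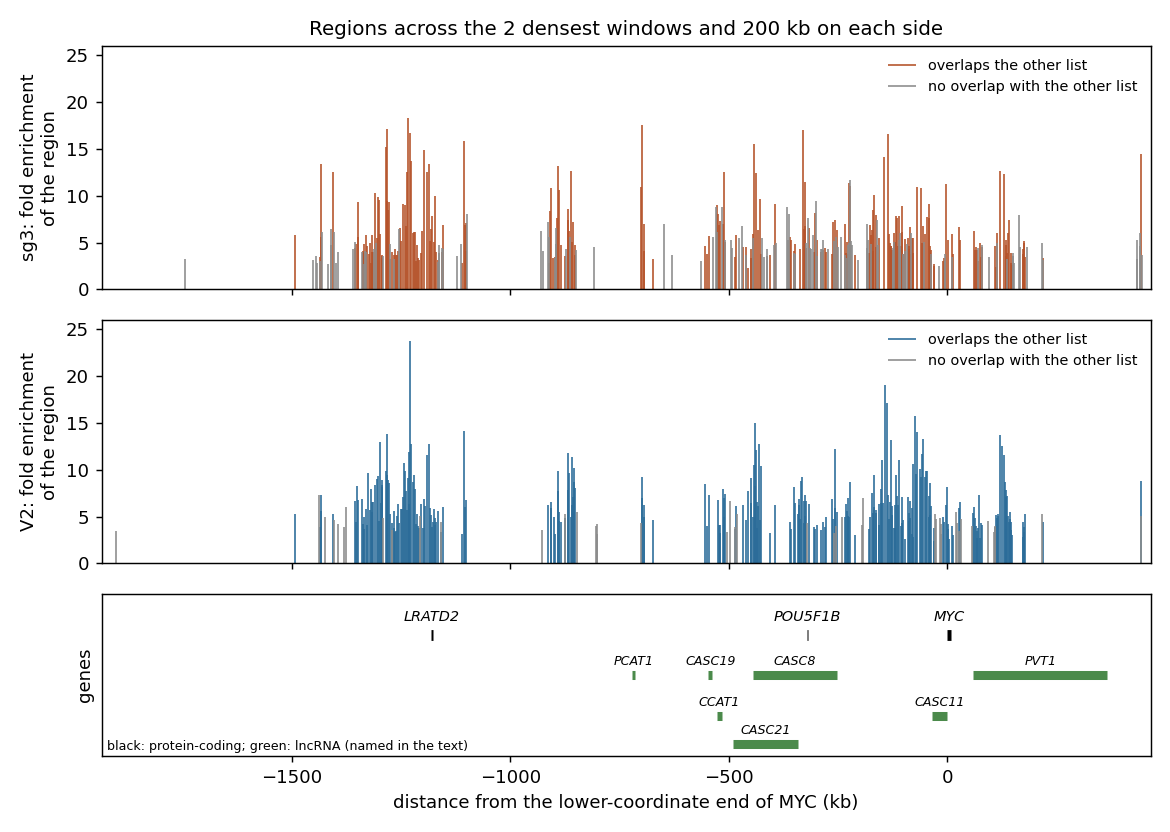
Regions of the sg3 list (top) and the V2 list (middle) across the 2 densest windows and 200 kb on each side, by distance from the lower end of MYC in kb; bar height is the authors' fold enrichment, and grey bars have no overlap with the other list. The bottom row shows protein-coding genes in black and long noncoding RNA genes in green: the main blocks stand at the same places in both lists, and bars stop about midway through PVT1.

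Over the whole segment, 43 clusters were found in sg3 and 32 in V2, with 69.8% and 69.0% of its regions. On the rest of chromosome 8 clusters held 65.7% and 64.0% of regions, and on other chromosomes 57.8% and 58.4%. Of the segment's clusters, 12 in sg3 and 14 in V2 started in the 2 densest windows. There 95.9% of sg3 and 92.0% of V2 regions belonged to a cluster. In the remaining segment these shares were 48.7% and 43.6%. Of the sg3 clusters 26 overlapped a V2 cluster, and of the V2 clusters 28 overlapped an sg3 cluster. Away from the pair of windows, the sg3 cluster with the most regions, 13, lay at chr8:141053525-141085013, between PTK2 and DENND3. In V2 those with the most, 11 each, lay at the end of TRAPPC9 and at chr8:141027964-141059923 in the same stretch as that sg3 cluster.

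A cluster over LINC02964, a long noncoding RNA gene above TRIB1, had no V2 overlap at all. Its 11 sg3 regions lay at chr8:125592678-125608704, with a median fold enrichment of 4.47 and a highest -log10 q of 14.5. It was the only sg3 cluster of the segment with no shared region. LINC02964 as a whole had 21 sg3 regions and 5 V2 regions over it. The V2 clusters without an sg3 cluster were 4, among them those in PLEC and DENND3, and every V2 cluster had at least 1 shared region. Of the V2 regions in those clusters, 8 of 8 in PLEC and 9 of 10 in DENND3 were shared. A wide sg3 region counts as 1 record towards a cluster, such as that of 9470 bases over 5 V2 regions in PLEC.

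The strongest sg3 region of the segment lay inside CCN4, which encodes a secreted matricellular protein of the WNT pathway. It spanned chr8:133212536-133213507, had fold enrichment 18.6 and -log10 q 182, and ranked 12 in the whole sg3 list. The V2 region there, chr8:133212593-133213403, had fold enrichment 7.71 and -log10 q 66.1. A neighbouring sg3 region in CCN4, chr8:133209515-133212327, ranked 3 by -log10 q in the segment, with a fold enrichment of 17.5. CCN4 had 9 sg3 and 7 V2 regions over it but none within 1 kb of either end.

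Of the 10 strongest sg3 regions, 7 lay in the 2 densest windows, and 8 of the 10 strongest V2 regions did, some of them within PVT1. Their closest protein-coding gene was LRATD2 or MYC. It was 3535 to 146731 bases from the summit in sg3 and 3529 to 146767 bases in V2. Outside those windows, the sg3 list had the CCN4 pair and the 11285-base region at chr8:143881928-143893212, whose summit lay 8956 bases from EPPK1, the gene of epiplakin. The V2 list had chr8:140591647-140594891 in AGO2, the slicer of RNA interference (fold enrichment 13.6), and chr8:119206047-119206884, 1932 bases below MAL2, a gene of apical transport (13.7). The highest fold enrichment in the sg3 list of the segment, 25.5, was inside PTK2, the focal adhesion kinase gene, at chr8:140791057-140792773. All of these regions were shared. By median, sg3 regions of the segment had a fold enrichment of 4.78 and a width of 646 bases (rest of chromosome 8: 4.86 and 598), and V2 regions 5.09 and 571 bases (5.29 and 540).

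Sharing between the lists was at the level of the rest of the chromosome. Of the sg3 regions 447 of 809 overlapped a V2 region by at least 1 base, 55.3% (51.8 to 58.7%), against 55.9% on the rest of chromosome 8 and 52.4% over the whole list. Of the V2 regions 536 of 625 overlapped an sg3 region, 85.8% (82.8 to 88.4%), against 83.8% and 86.3%. The counts without overlap were 362 in sg3 and 89 in V2, where the whole lists had 47.6% and 13.7% without overlap. There were 1.29 sg3 regions for each V2 region in the segment, 1.32 on the rest of chromosome 8 and 1.41 over the whole lists.

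The segment's average hid a split between the MYC windows and the remainder. In the 2 densest windows 65.6% of sg3 regions (60.4 to 70.4%) were shared, and in the remaining segment 46.9% (42.2 to 51.6%). The V2 shares were 87.2% (83.0 to 90.6%) and 84.2% (79.6 to 88.2%). The count ratio of sg3 to V2 was 1.11 in the pair of windows and 1.5 elsewhere in the segment. Split by strength, the sg3 gap was widest at a -log10 q of 10 to 20, where 75.2% (66.5 to 82.6%) were shared in the 2 windows, 37.9% (29.8 to 46.4%) in the remaining segment and 53.5% on the rest of chromosome 8. Below 10 the 3 shares were 32.3%, 17.5% and 32.1%, so the 2 windows were level with the rest of the chromosome there. From 20 to 40 they were 89.6%, 69.8% and 78.2%, and from 40 up 100%, 92.2% and 95.8%. The 2 windows were chosen on counts of the same lists and the intervals assume independent regions, so no test of the split was made. V2 regions covered 146 kb per Mb in the 2 windows and 8.93 kb per Mb in the remaining segment. How far such crowding alone raises the overlap was not tested.

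**Figure D4:**
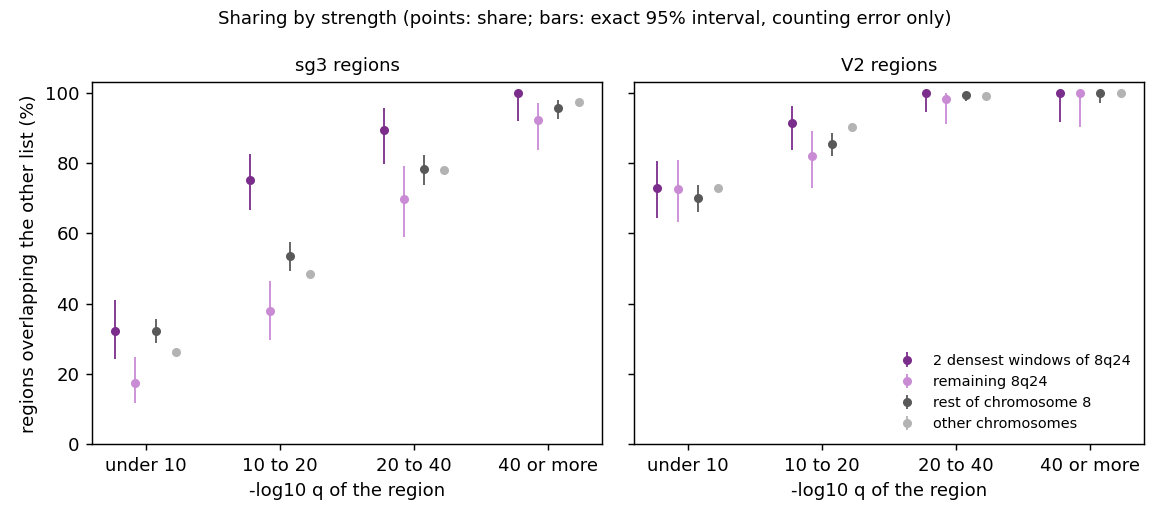
Share of sg3 regions (left) and V2 regions (right) that overlap the other list, in percent, by -log10 q of the region. Points are shares, bars are exact 95% intervals covering counting error only, and colours mark the 2 densest windows, the remaining 8q24 segment, the rest of chromosome 8 and other chromosomes: in sg3 the 2 windows lie above the remaining segment in each band, and all 79 V2 regions of the segment with 40 or more are shared.

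Strong regions were shared nearly throughout, in the segment as over the whole lists. With a -log10 q of 40 or more, 3490 of 3490 V2 regions and 7000 of 7189 sg3 regions (97.4%) were shared over the whole lists. In the segment 79 of 79 such V2 regions had an sg3 partner. The 0 of 79 unpaired leaves room for a share of 3.80% by the limit of 3 counts, or 4.56% by the exact 95% interval. Of 122 sg3 regions of that strength 116 were shared, including all 45 in the 2 densest windows, where 0 of 45 leaves room for 6.67% and 7.87% by the same 2 limits. Regions in 1 list were weaker and narrower in each list. Median fold enrichment was 4.33 for sg3-only and 5.50 for shared sg3 regions, with widths of 485 and 902 bases. For V2 it was 4.49 and 5.24, with widths of 412 and 604 bases.

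Without a V2 partner were 6 of 122 sg3 regions of that strength (whole list: 189 of 7189), all outside the 2 densest windows. The strongest was chr8:140597265-140599296 in AGO2 (fold enrichment 7.75, -log10 q 53.3), followed by chr8:141073570-141074082 in the stretch below DENND3 (47.9). A 703-base region at chr8:119177154-119177856, 30860 bases from MAL2, had a fold enrichment of 15.2. It lay just above a shared sg3 region, chr8:119176094-119177006 (12.3), whose V2 partner was chr8:119176125-119176758 (11.8). At the higher end of EXT1, which encodes a heparan sulphate polymerase, lay chr8:118111934-118112511 (-log10 q 45.7). The others were chr8:124857013-124858961 (41.4), at the long noncoding RNA gene LOC105375743, and chr8:123416722-123417162 (40.2), where the ends of ATAD2 and NTAQ1 meet.

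V2-only regions of the segment had a -log10 q of at most 23.8. That region, chr8:124106789-124107373 inside FER1L6, had a fold enrichment of 7.59, and chr8:126297008-126297500, at the lower edge of the dense stretch, had 7.29 and a -log10 q of 18.8. FER1L6, a ferlin family gene, also had a V2-only region at its higher end, chr8:124120131-124120531. Others of the 10 strongest lay in NSMCE2, in TRAPPC9 and 1843 bases from TRIB1.

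Where regions paired up, their summits nearly coincided, and the sg3 region was usually the wider. In 352 pairs a region of each list overlapped only the other, and the summits lay a median of 42 bases apart, with 79.0% within 100 bases. The sg3 region was wider in 268 of them (76.1%). The rest of chromosome 8 was alike, with a median of 45 bases, 75.3% within 100 bases and sg3 wider in 76.9%. Of the 447 shared sg3 regions, 73 (16.3%, 13.0 to 20.1%) overlapped 2 or more V2 regions, against 10.9% (9.16 to 12.9%) on the rest of chromosome 8 and 13.4% on other chromosomes. The highest number, 5, was reached at 3 places: chr8:127393238-127401324 over CASC8 and CCAT2, chr8:127581766-127596276 in the MYC block, and chr8:143936894-143946363 in PLEC. At least 5 kb wide were 15 sg3 regions (1.85%), 9 of them in the 2 densest windows, and 6 V2 regions (0.96%). These shares were 0.961% and 0.201% on the rest of chromosome 8, and 1.36% and 0.390% on other chromosomes.

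Most regions of the segment lay away from protein-coding genes, chiefly in the same 2 windows. By midpoint, 70.3% of sg3 and 72.5% of V2 regions were outside genes and more than 1 kb from their ends, against 49.8% and 51.5% on the rest of chromosome 8. Without the 2 windows the shares were 47.5% and 45.3%. Gene ends had 9.39% of sg3 and 8.00% of V2 regions, and 16.4% and 15.1% without the 2 windows. More than 100 kb from any protein-coding gene lay 31.4% of sg3 and 32.8% of V2 regions, against 12.7% and 12.8% on the rest of chromosome 8.

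The 171 protein-coding genes of the segment were marked at shares close to those of all genes. A gene was counted as marked when a region of a list reached to within 1 kb of its lower or higher end, since the gene table used gives no strand. The sg3 list marked 80 genes, 46.8% (39.1 to 54.6%), where it marked 47.2% of 19974 genes of the genome. The V2 list marked 47, 27.5% (20.9 to 34.8%), where the genome had 28.8%. Both lists marked 47 genes (genome: 28.3% of genes), sg3 alone marked 33 (18.9%), V2 alone marked 0 (0.501%) and neither marked 91 (52.3%). The 0 of 171 leaves room for 1.75% by the limit of 3 counts and 2.13% by the exact interval. At each of the 47 genes marked in both lists, an sg3 region overlapped a V2 region at the ends. Of the 91 unmarked genes 78 had no region of either list over any part of them.

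The 33 genes marked in sg3 alone had weaker and narrower regions than the genes marked in both. The median -log10 q of their strongest sg3 region was 16.5 against 41.4, and the median width was 452 against 1123 bases. They rest on 34 regions, since 11 of these regions served a pair of genes, such as MRPL13 with MTBP, ATAD2 with NTAQ1, TATDN1 with NDUFB9, WASHC5 with NSMCE2 and VPS28 with TONSL.

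The lists of genes that follow are small and are to be read against the genome's shares of 28.3% in both, 18.9% in sg3 alone and 52.3% unmarked. The list headed chromosome maintenance and DNA repair had 8 members in the segment, of which sg3 alone marked 5, both lists 1 and neither 2. Marked in sg3 alone were ATAD2, a bromodomain ATPase (fold enrichment 5.41), MTBP, which takes part in replication origin firing (8.00), NSMCE2, the SUMO ligase of the SMC5/6 complex (5.40), TONSL, a replication fork repair factor (3.55), and EXT1 (5.45), which was listed here although it makes heparan sulphate. Away from the ends, V2 had 5 regions over EXT1, 15 over NSMCE2 and 1 over ATAD2, and 0 over MTBP and TONSL. With a window of 2.5 kb EXT1 was no longer marked in sg3 alone. The regions at ATAD2, MTBP, NSMCE2 and TONSL also served NTAQ1, MRPL13, WASHC5 and VPS28, and 0 sg3 regions lay over TONSL itself. DSCC1, a sister chromatid cohesion factor, was marked in both lists, at an end it shares with TAF2. RECQL4, a DNA helicase, and ZNF623, a zinc finger gene listed here without such a role, had no region at an end. The 15 genes of transcription, RNA processing and translation fell into 6 that both lists marked, 6 with sg3 alone and 3 unmarked.

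Among those 15, both lists marked the Mediator subunit MED30, the TFIID subunit TAF2, the chromatin reader PHF20L1, the ribosome assembly factor BOP1, the heat shock factor HSF1 and the ribosomal protein gene RPL8. A region at chr8:144291617-144292416 in sg3 (fold enrichment 5.47) and chr8:144291647-144292191 in V2 (4.29) served BOP1 and HSF1 alike. In sg3 alone were MRPL13, ZHX1, ZHX2, EEF1D, the splicing factor gene PUF60 (4.67) and MAF1, the repressor of RNA polymerase III (2.85). AGO2, the exosome subunit EXOSC4 and the polyadenylation factor CPSF1 had no region at an end. AGO2 nevertheless had 7 sg3 and 6 V2 regions over it.

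MYC and its neighbours across the desert were all marked, 7 of 9 in both lists and 2 in sg3 alone. Both lists marked TRIB1, a pseudokinase gene, LRATD2, POU5F1B, MYC, GSDMC, CYRIB and ASAP1. GSDMC, a gasdermin gene, had regions with fold enrichments of 4.98 in sg3 and 9.1 in V2. In sg3 alone were SQLE, the squalene epoxidase of cholesterol synthesis (3.12), and NSMCE2. At SQLE the region was chr8:124998582-124999169. NSMCE2 had no V2 region at an end, yet 15 regions of each list lay over the gene.

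The list headed epithelial adhesion, cytoskeleton and surface had 16 genes, of which both lists marked 8, sg3 alone 1 and neither 7. Marked in both were MAL2, NDRG1, PTK2, LY6K, LY6D, LY6E, the keratin organiser FAM83H and EPPK1. At LY6D, a keratinocyte surface protein gene, a 5716-base sg3 region (fold enrichment 7.59) faced a 2783-base V2 region (5.66). HAS2, a hyaluronan synthase, was in sg3 alone (5.67). PLEC, the plectin gene, had no region at its ends but 5 sg3 and 8 V2 regions over it, and PSCA, a surface antigen gene, had 4 of each. SCRIB, the polarity gene, FAM83A, PTP4A3, GRINA and SHARPIN had none.

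The LY6 list had 13 genes in the gene-rich end, 12 of LY6 type and THEM6, a thioesterase superfamily gene that lies among them. LY6K, LY6D and LY6E were marked in both lists, THEM6 in sg3 alone, and 9 in neither, beside 52.3% of all genes in neither. Metabolism and signalling genes were marked in both lists for 3 of 16 (TRIB1, NAPRT of NAD synthesis and CYC1 of respiratory complex III) and in sg3 alone for 3 (SQLE, the ubiquitin ligase gene FBXO32 and NDUFB9 of complex I). The other 10, among them DGAT1 of triglyceride synthesis and ENPP2, had no region at an end. Of 19 genes chiefly used by other tissues, 17 were unmarked, among them TG, the steroid hydroxylases CYP11B1 and CYP11B2 and the potassium channel KCNQ3. FER1L6 was marked in both lists and GPR20, an orphan receptor gene, in sg3 alone. These lists were chosen with earlier results known and were not tested.

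**Figure D5:**
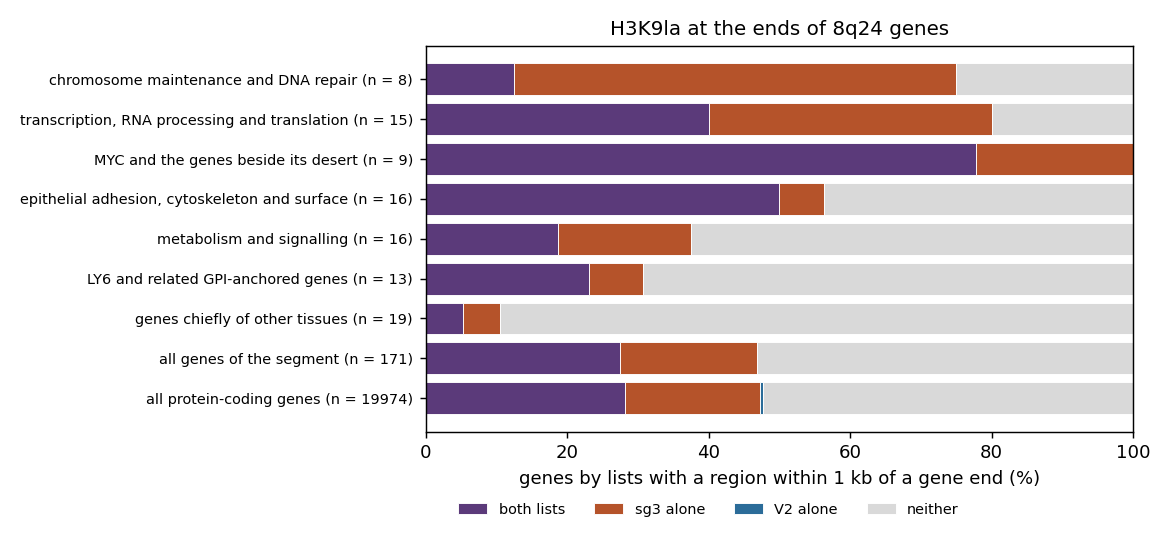
Share of genes, in percent, with a region within 1 kb of a gene end, by the lists that have it (both, sg3 alone, V2 alone, neither), for 7 gene lists of the segment, all 171 genes of the segment and 19974 protein-coding genes. The first list includes EXT1 and ZNF623, and the LY6 list includes THEM6. All 9 genes around MYC were marked, 17 of 19 genes chiefly of other tissues were not, and the segment's bar is close to that of all genes.

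The gene-rich end of the segment had few regions for its number of genes, though not for its length. Its windows from 142, 143 and 144 Mb had 25, 46 and 24 sg3 regions, against 14 in the median window of the segment. In V2 they had 12, 38 and 13, against 9. From 142 Mb to the end lay 95 of the 171 genes (55.6%) but 96 sg3 regions (11.9%) and 64 V2 regions (10.2%), 1.01 sg3 regions per gene. In the 2 densest windows there were 121 sg3 regions per gene. The 5 windows starting from 135 to 139 Mb were almost bare, with 5 sg3 regions and 0 V2 regions in all. The V2 list had no region over 5622 kb, from chr8:134832360 to 140454241, which holds KHDRBS3, FAM135B, COL22A1, KCNK9 and most of TRAPPC9. The longest stretch without an sg3 region, chr8:136530905-138833166, was 2302 kb and lay within it.

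Noncoding genes were counted in the same way. Of 182 long noncoding RNA genes 33 were marked in both lists (genome: 13.5% of 18177), 13 in sg3 alone (7.78%), 1 in V2 alone (0.446%) and 135 in neither (78.3%). Of 34 microRNA genes both lists marked 4 (genome: 9.16% of 1911), sg3 alone 1 (5.13%), V2 alone 0 (0.157%) and neither 29 (85.6%). SMILR, a long noncoding RNA gene below ZHX2, had 7 sg3 and 12 V2 regions over it. Sequencing coverage of the input libraries was not analysed here, so the number of regions per copy of DNA was not determined.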

How the data were processed

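The 2 peak lists in narrowPeak layout were used, 1 for each arm. The submitters' processing notes name build hg38, MACS2 2.2.9.1, Bowtie2 2.5.1, Trim Galore 0.6.10, FastQC 0.12.1 and SAMtools 1.18. Not given in the sources used here are the command line, the control library, the handling of reads that align to several places, and depth. IgG libraries were not analysed here. Fold enrichment, the ratio of pileup at the summit to the modelled background, and the -log10 p and -log10 q of a record are values deposited by the authors. The integer score, also deposited by the authors, was 10 times the -log10 q, truncated, in 99.98% of sg3 and 99.82% of V2 records and was not used. The other deposited column, the summit offset, served for positions only. Each list was treated as coming from 1 library.

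Positions are 1-based on hg38. Genes came from a RefSeq table of GRCh38.p14, with 19974 protein-coding genes on the autosomes and X, without strand or exons. Its sequence tables held no entry used here. An overlap of at least 1 base made a region shared. Densities were counted per Mb by record start, in windows of 1 Mb, and genes were assigned to windows by their lower end. Shares have exact Clopper-Pearson intervals and densities exact Poisson intervals, both at 95%. No test was made, with 1 library per arm. Named items are the 10 strongest regions of each list by -log10 q, the 10 strongest in 1 list, the 5 clusters with the most records, the 5 widest regions, the 3 windows with the most and the fewest records, and members of 7 gene lists. The PTK2, LINC02964, PVT1 and noncoding gene values were added after values were seen. Members and lists were chosen with earlier results of these data known. Python 3.11.15 with numpy 2.4.6, pandas 2.3.3 and scipy 1.17.1 was used, and the scripts were tested on simulated regions. Alternatives changed the thresholds on -log10 q (10) and fold enrichment (4), list length, merging (1 kb), overlap, cluster rules and the gene end window (2.5 kb).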

Additional observations from a re-analysis of the deposited data

How the results depend on the processing

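Of 68 alternatives, 36 left the value within its interval, or within 1.5 times for counts, and 32 moved it. Under the thresholds, list lengths, merging and denominators tried, none reversed the density excess, and the ratio to the rest of chromosome 8 ran from 1.41 to 2.01 in sg3 and from 1.44 to 2.02 in V2. The sg3 ratio was 2.01 by covered bases and 1.41 over windows with a record only, and the V2 ratio was 1.57 with records within 1 kb merged, 2.02 by covered bases and 1.44 over windows with a record only. Leaving out the 2 densest windows, an alternative chosen after seeing the data, gave ratios of 1.01 and 0.894, 46.9% of sg3 regions shared, 16.4% and 15.1% of sg3 and V2 regions at gene ends, 47.5% and 45.3% outside genes, and a median V2 fold enrichment of 4.70. The shared part of sg3 regions was 45.2% when at least 50% of a region had to overlap, 69.6% within 1 kb, 51.7% at a fold enrichment of at least 4 and 67.5% with lists of equal length. For V2 it was 91.2% within 1 kb, 74.3% at a fold enrichment of at least 4 and 79.0% with lists of equal length. With at least 8 records a cluster, 18 sg3 and 17 V2 clusters were found, and with a -log10 q of at least 10 there were 26 and 17. A window of 2.5 kb put 15.2% of sg3 and 13.9% of V2 regions at gene ends. Among regions with a -log10 q of at least 10, the median fold enrichment was 5.75 in sg3 and 6.19 in V2, with median widths of 815.5 and 658 bases. FER1L6 became the 1 gene marked in V2 alone at a -log10 q of at least 10 and with lists of equal length. Of the 33 genes marked in sg3 alone, 29 kept that status with a window of 2.5 kb, and 26 at a -log10 q of at least 10 and with lists of equal length. The counts of genes that both lists, sg3 alone or neither marked stayed within 1.5 times under the alternatives run. The cause of these moves was not tested. A window around the transcription start only could not be run, since the gene table used has no strand. No paired analysis was possible because each arm has 1 ChIP library and the results come from no test.

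Without replicates or read depth, a region in 1 list cannot be told apart from a region that just missed the threshold in the other.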

Other observations

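Outside the segment as defined, alternate contigs of chromosome 8 held 23 sg3 regions on 4 contigs and 18 V2 regions on 3 contigs. They were not placed on the chromosome and entered no count above.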
